A study of Mus musculus with 5 samples.

Results

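The 40 genes described here are cell cycle genes of the mouse, chosen by symbol from the 31053 genes counted in each library. They comprise 16 replication genes, 21 mitosis genes and 3 genes that control the G1 phase (Ccnd1, Ccnd2 and Cdkn1a). All 40 were found. Single-cell RNA of mouse skin was counted in 5 droplet libraries, 1 for each group, with all mice labelled C57BL/6. The wild-type groups were dermis and epidermis of untreated mice, and dermis of mice given imiquimod on the ear for 5 days, each at 10 week. Imiquimod is a TLR7 agonist that induces a psoriasis-like inflammation. The other groups had the genotype K5. Pp6fl/fl and were also untreated: non-lesional epidermis at 10 week, and lesional whole skin at 18 week. In this line the gene of the phosphatase Pp6 is meant to be lost from cells that express keratin 5, that is from keratinocytes and not from leukocytes or stroma. The labels name no Cre and no deleted exon. The body site is given for imiquimod only, and no source used here gives the number of animals in a library. Lesion, age and tissue layer therefore cannot be told apart in the comparison of lesional with non-lesional tissue.

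Cells that leave G1 use D-type cyclins, here Ccnd1 and Ccnd2, to inactivate the retinoblastoma protein and release E2F, which switches on the genes of DNA replication. The kinase inhibitor p21, encoded by Cdkn1a, holds cells back at that step. Later in the cycle the MuvB complex with B-Myb and FoxM1 switches on the mitosis genes, whose products condense, align and separate the chromosomes. In skin, division takes place mainly in the basal layer and in the hair matrix.

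A few start regions are shown because the members of both phases differ in the motifs found there. RefSeq promoter windows on GRCm38.p6, each 250 bases before to 50 bases after a gene's start, matched 13 of the 16 replication genes and 18 of the 21 mitosis genes. Both strands were searched for TTTGAA (the cell cycle homology region, CHR), for CCAAT (the box bound by NF-Y) and for TTTNNCGC (an E2F-type site). In an inverted stretch the CCAAT matches of opposite strands can overlap. TTTGAA was found for 13 of the 18 mitosis genes (72.2%), for 1 of 13 replication genes (7.69%) and for 20.2% of all 27025 genes with a window. TTTNNCGC was found for 7 of the 13 replication genes (53.8%), for 1 of 18 mitosis genes (5.56%) and for 5.93% of all genes. CCAAT was found for 16 mitosis genes (88.9%), 8 replication genes (61.5%) and 41.1% of all genes. The mitosis gene with an E2F-type match was Cdk1, and the replication gene with a CHR match was Mcm2. The stretches below lie before the start of 4 mitosis genes with a CHR match, of Mcm5 and Mcm6 with an E2F-type match, of Mcm2 as the exception, and of Rrm2, whose UMIs lay with those of the mitosis genes. Capitals mark the searched motif or its reverse complement, and each run reads 5′ to 3′ on the gene's strand.
Mki67, CHR at -98, chr7:135716460-135716489, minus strand: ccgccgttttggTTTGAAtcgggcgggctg
Top2a, CHR at -23, chr11:99024195-99024224, minus strand: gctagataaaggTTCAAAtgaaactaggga
Kif11, CHR at -19, chr19:37376351-37376380, plus strand: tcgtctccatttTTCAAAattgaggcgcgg
Cdk1, CHR at -71, chr10:69352966-69352995, minus strand: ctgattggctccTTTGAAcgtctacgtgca
Mcm5, E2F type at -153, chr8:75109345-75109374, plus strand: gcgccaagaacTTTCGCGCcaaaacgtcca
Mcm6, E2F type at -47, chr1:128359734-128359763, minus strand: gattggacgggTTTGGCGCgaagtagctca
Mcm2, CHR at -70, chr6:88898833-88898862, minus strand: agggctcagcctTTTGAAagctgtgggcgg
Rrm2, CCAAT at -50, chr12:24708192-24708221, plus strand: ggtcagcggcgtCCAATgggaggcgaggcc
A match describes the letters of these windows only, and binding was not measured.

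The libraries held 584 to 5376 barcodes and 3020790 to 41258087 UMIs, and 11577 of 13288 barcodes were kept as cells. Each cell was given a class from marker genes. Neutrophils, which do not divide, served as a reference in the imiquimod dermis and the lesional skin. No cell of the other libraries was given this class. They are no floor for summed levels: in the lesional skin mitosis genes were at 59.9 CPM in neutrophils and 21.9 CPM in fibroblasts. The sequences of 47 barcodes were found in 2 libraries, none of them in the lesional library. In the imiquimod dermis 1359 cells scored for more than 1 class and were left out as mixed, against 7 in the untreated epidermis. The lesional library held 192 keratinocytes with Xist and 185 with Y-linked UMIs and no Xist, so it mixes animals of both sexes. Among non-lesional keratinocytes 2 of 1599 had Xist, and among those of the untreated epidermis none did. The median keratinocyte of the untreated epidermis had 0.0674% mitochondrial UMIs, against 3.22% in the non-lesional and 5.49% in the lesional library. Ppp6c, which encodes the catalytic subunit of Pp6, had 80.3 CPM in untreated, 72.0 CPM in non-lesional and 51.0 CPM in lesional keratinocytes. Reads from the 3′ end can lie outside the deleted part, so these values do not check the genotype.

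In keratinocytes the members of both phases were ordered differently over the 3 libraries. Levels are UMIs of a gene summed over the cells of a class, scaled by all UMIs of that class and library to CPM, with exact Poisson 95% intervals that cover counting error only. Summed over the 16 replication genes, the untreated epidermis had 589 CPM (557 to 622), the non-lesional epidermis 386 CPM (376 to 395) and the lesional skin 747 CPM (731 to 763). The 21 mitosis genes summed to 427 CPM (400 to 455), 858 CPM (844 to 873) and 1769 CPM (1744 to 1794) in the same order. Replication genes thus took 58.0% of the UMIs of both lists in the untreated epidermis, 31.0% in the non-lesional epidermis and 29.7% in the lesional skin. These values rest on 490, 1599 and 430 keratinocytes. With 1 library a group there is no test between groups and no difference has a replicate check.

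**Figure D1:**
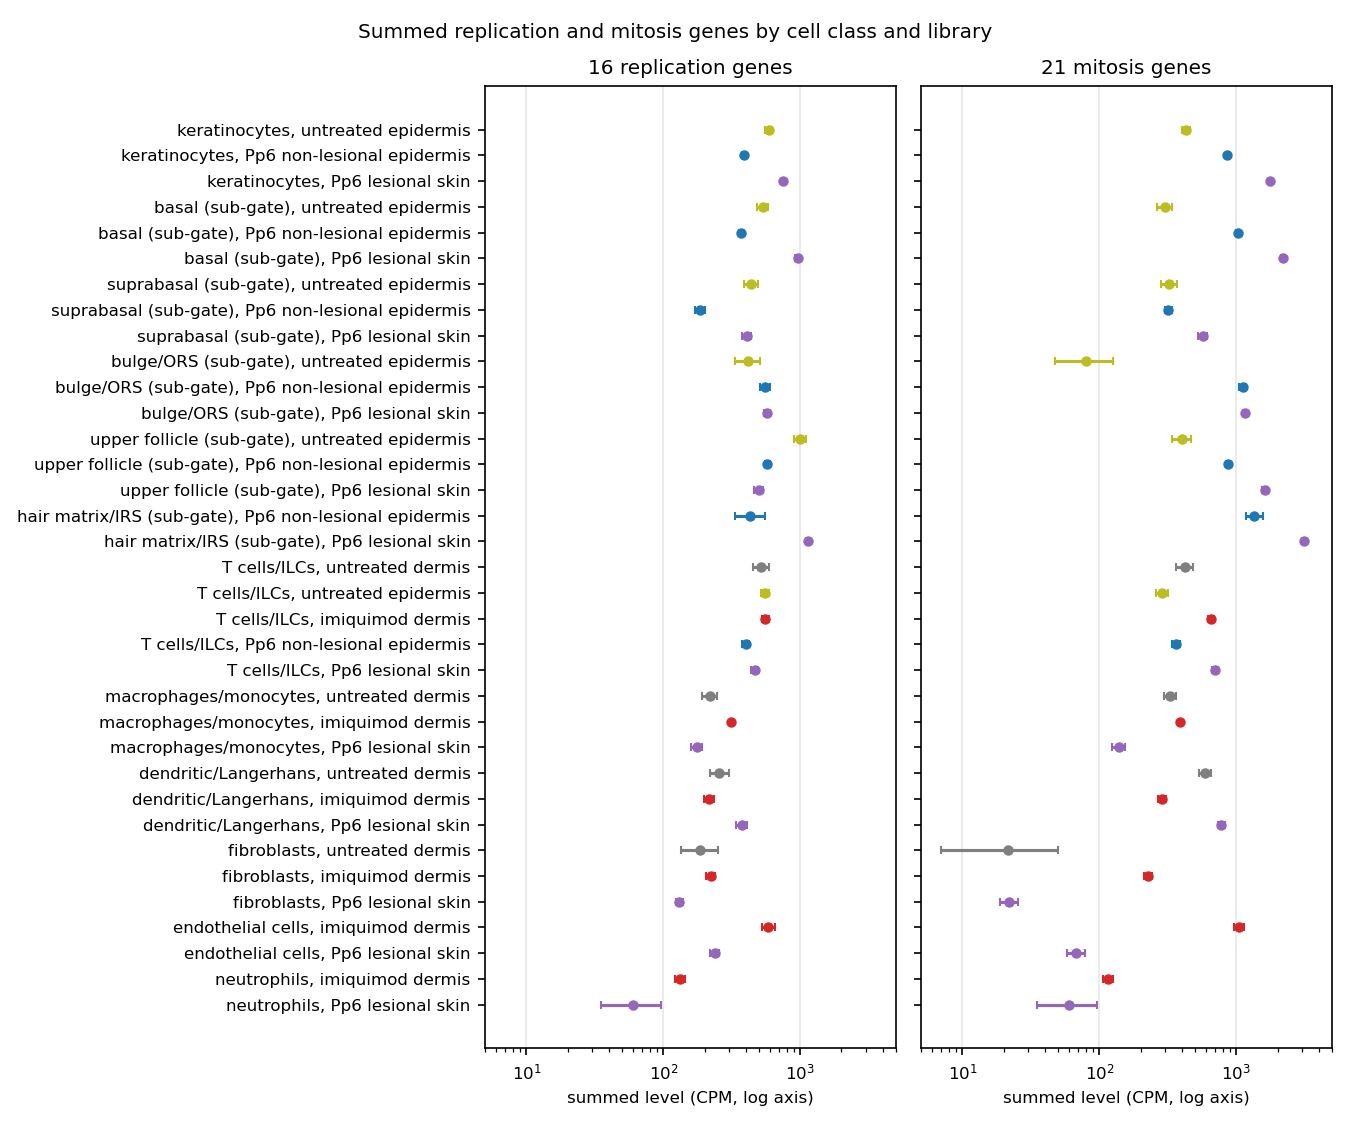
Summed level of the 16 replication genes (left) and the 21 mitosis genes (right) in CPM on log axes, 1 row for each cell class or keratinocyte sub-gate and library, with bars for exact Poisson 95% intervals. Mitosis genes reach 3104 CPM in the lesional hair matrix and are near 20 CPM in fibroblasts of the untreated dermis and the lesional skin; neutrophils sit at 116 and 59.9 CPM.

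Non-lesional against untreated epidermis asks what differs in keratinocytes of the mutant line in tissue labelled non-lesional. Mitosis genes were higher and replication genes lower. The summed mitosis genes differed 2.01-fold (1.88 to 2.15, exact conditional binomial 95% interval) and the summed replication genes 0.655-fold (0.616 to 0.696). With every cell thinned to 2000 UMIs the mitosis ratio was 1.33-fold (1.17 to 1.52), the median keratinocyte having 2191 UMIs in the untreated and 9582 UMIs in the non-lesional library. A gene was called higher or lower by size alone, where its ratio's whole interval was past 1.5-fold, and it was measured if the pair of libraries held 10 or more of its UMIs and either held 10 CPM or more. Of 18 measured mitosis genes 8 were called higher and none lower, where 3.30% of all measured genes were called higher. Of 14 measured replication genes 3 were called lower and none higher, where 1.97% of all genes were called lower.

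Among the mitosis genes, Mki67, whose product coats mitotic chromosomes, was at 10.6 CPM in the untreated and 49.6 CPM in the non-lesional epidermis, 4.70-fold (3.11 to 7.46). Cenpf, a kinetochore protein, was at 11.9 against 70.0 CPM, 5.87-fold (3.99 to 9.03). Top2a, the topoisomerase that untangles sister chromatids, was at 28.0 against 81.0 CPM, 2.89-fold. The other called genes were Hmmr, a spindle protein (3.34-fold), Cenpe, a kinetochore motor (2.70-fold), Ube2c, a ubiquitin enzyme of the anaphase-promoting complex (2.14-fold), Nusap1, a spindle protein (2.05-fold), and Birc5, the chromosomal passenger survivin (2.01-fold). The cyclins and their kinase stood closer: Cdk1 was at 1.36-fold (1.11 to 1.70), Ccnb1 at 1.47-fold, Ccnb2 at 1.61-fold and Ccna2 at 1.42-fold, none of them called.

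Among the replication genes, Mcm2, a subunit of the replicative helicase, was at 36.7 CPM in the untreated and 13.9 CPM in the non-lesional epidermis, 0.379-fold (0.292 to 0.495). E2f1, the transcription factor of the G1 exit, was at 0.415-fold and Ccne2, a cyclin of the G1/S step, at 0.329-fold. Each of the 14 measured replication genes had a fold under 1, up to Tyms, the thymidylate synthase, at 0.981-fold (0.798 to 1.22). Of the helicase subunits, Mcm3 was at 0.561-fold, Mcm4 at 0.534-fold, Mcm5 at 0.674-fold, Mcm6 at 0.646-fold and Mcm7 at 0.757-fold. Members not measured here were Ccne1, Cdc6, Bub1, Bub1b and Kif11.

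Genes of the same pathways outside the members went along in part. Of 24 measured of 35 other mitosis genes 4 were called higher, led by the condensin subunit Smc2 (22.9 against 60.1 CPM, 2.62-fold) and the midzone protein Prc1 (22.0 against 54.1 CPM, 2.46-fold). Of 21 measured of 28 other replication genes none was called in either direction, and their sum was at 0.832-fold. The median log2 ratio with 5 CPM added was 0.70 over the mitosis members and -0.57 over the replication members, against -0.07 over all measured genes.

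The mitochondrial share of the cells moved with this result. In the untreated epidermis the 354 keratinocytes with under 0.5% mitochondrial UMIs had 836 CPM of mitosis genes, and the 136 with at least 0.5% had 211 CPM. Replication genes were at 516 and 628 CPM in these cells. Against cells with at least 0.5% in both libraries, the mitosis genes of the non-lesional epidermis were at 4.06-fold and the replication genes at 0.614-fold. As a mean over cells in place of summed UMIs, the mitosis genes were at 0.970-fold. Of the 931 mitosis UMIs of untreated keratinocytes, 282 came from 71 cells that matched no keratinocyte sub-gate, at a median of 1206 UMIs a cell. The part of the mitochondrial share and depth in the difference was not tested.

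Transcript length also moved with it. Across the 18 measured mitosis genes the log2 ratio and the longest transcript of GENCODE M21 had a Spearman correlation of 0.63, and across 7764 measured genes 0.12. The longest transcripts among the members are those of Cenpf (11130 bases), Mki67 (10061) and Cenpe (7910). Genes of 1 pair of libraries share depth and capture, and the part of length was not tested.

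By position in the epidermis the difference was not the same throughout. In cells of the basal sub-gate (113 and 757 cells) mitosis genes were at 302 CPM in the untreated and 1022 CPM in the non-lesional epidermis, 3.39-fold, and 12 of 19 measured were called higher, where 1.95% of all genes were. Cenpf was at 8.7 against 92.6 CPM there and Ube2c at 9.9 against 101 CPM. The median basal cell had 4231 UMIs in the untreated and 11230 UMIs in the non-lesional library. Of the basal cells kept after thinning, 3 of 81 untreated cells (3.70%, 0.770 to 10.4) had at least 3 mitosis genes. In the non-lesional library 60 of 718 did (8.36%, 6.44 to 10.6), and the intervals overlapped. In the suprabasal sub-gate (174 and 256 cells) mitosis genes were at 323 and 319 CPM, 0.988-fold (0.848 to 1.16), while replication genes were at 436 and 185 CPM, with 6 of 13 called lower against 1.29% of all genes. Suprabasal Mcm2 was at 0.117-fold, and Pcna, the sliding clamp of the polymerases, at 0.469-fold. In the bulge and outer root sheath sub-gate (44 and 176 cells) mitosis genes were at 80.0 and 1117 CPM, with 12 of 21 called higher against 1.21% of all genes. There Cdk1, Cdc20, Ccna2, Cenpf and Hmmr were among the members with 0 UMIs in the untreated library. Against a floor of 3 counts over the class, Cdc20, an activator of the anaphase-promoting complex, was at least 6.94-fold higher and Cdk1 at least 6.14-fold higher. The untreated sum of this sub-gate rests on 18 mitosis UMIs. After thinning, 0 of 29 untreated cells (0 to 11.9%) and 11 of 144 non-lesional cells (7.64%, 3.87 to 13.3) had at least 3 mitosis genes, with overlapping intervals. The sub-gates are ranges of marker scores: 257 of 1599 non-lesional and 87 of 490 untreated keratinocytes had a margin under 0.1 between their best sub-gates.

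The class of T cells and innate lymphoid cells (ILCs) in both epidermal libraries had the same directions. Replication genes were at 557 CPM in 369 cells of the untreated and 398 CPM in 693 cells of the non-lesional epidermis, 0.715-fold, and mitosis genes at 287 and 363 CPM, 1.26-fold (1.13 to 1.42). No member was called in either direction, where 3.57% of all genes were called higher and 1.46% lower. T cells with at least 3 mitosis genes after thinning were 6 of 338 (1.78%, 0.654 to 3.82) in the untreated and 12 of 633 (1.90%, 0.983 to 3.29) in the non-lesional epidermis, with overlapping intervals.

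Lesional skin against non-lesional epidermis asks what differs in keratinocytes of a lesion. Members of both phases were higher in the lesional library, replication genes 1.94-fold (1.87 to 2.0) and mitosis genes 2.06-fold (2.02 to 2.11). Of 14 measured replication genes 10 were called higher, and of 21 measured mitosis genes 13, with none lower. In this comparison 27.7% of all measured genes were called higher and 11.0% lower. The median log2 ratio was 0.83 over replication and 0.89 over mitosis members, against 0.22 over all genes, a shift that these medians include.

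**Figure D2:**
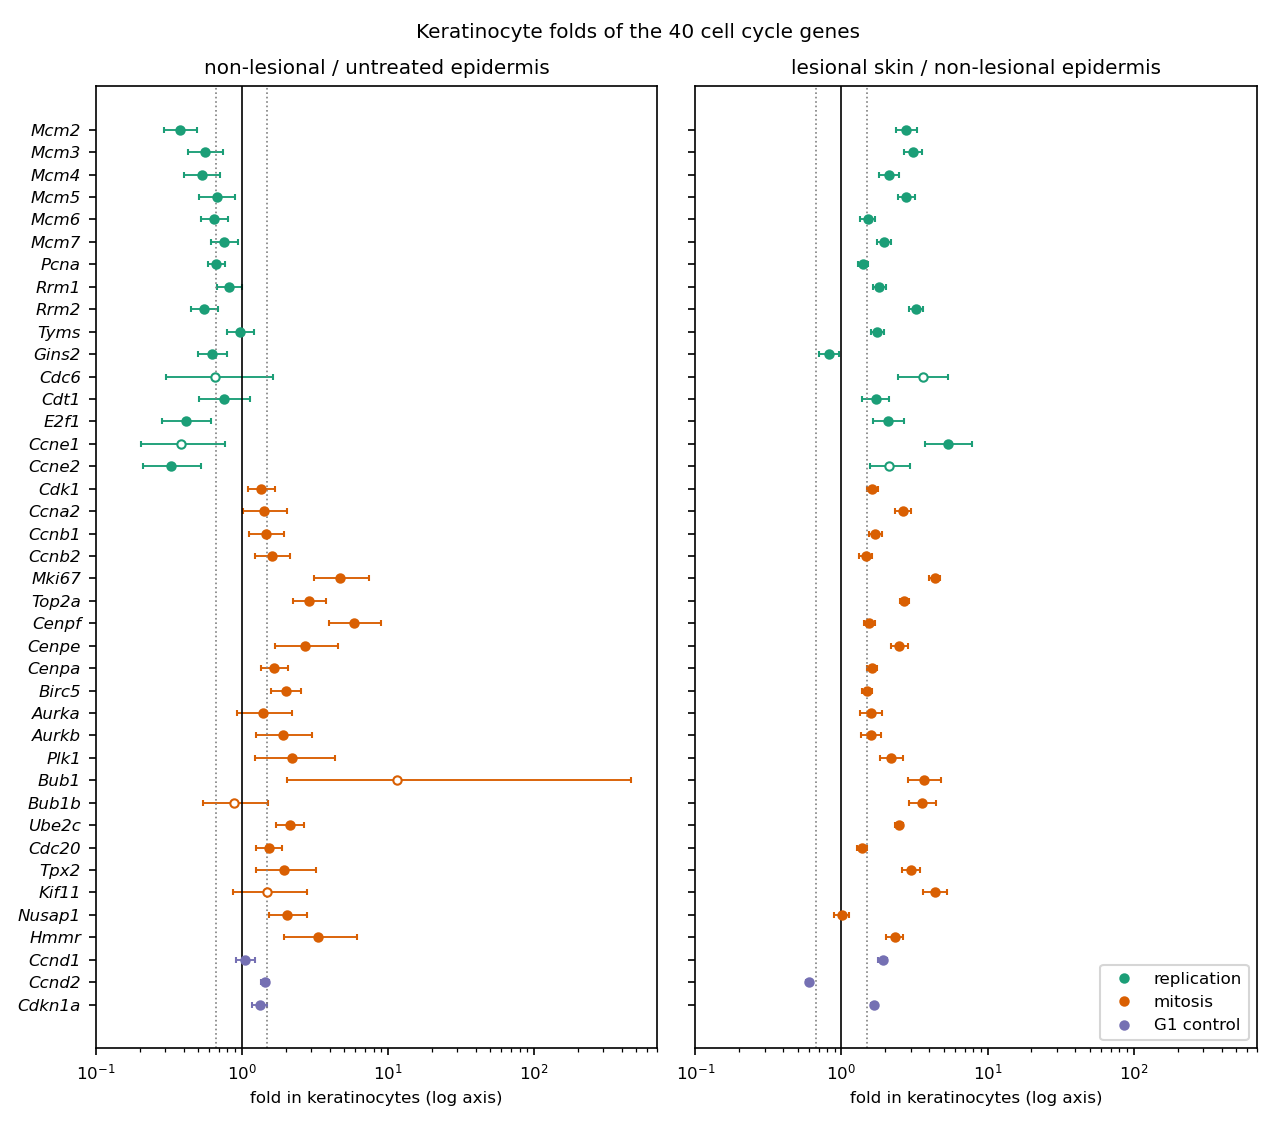
Fold of each of the 40 genes in keratinocytes (log axis), non-lesional over untreated epidermis (left) and lesional skin over non-lesional epidermis (right), with exact conditional binomial 95% intervals. Open points did not reach the measured minimum, and dotted lines mark 1.5-fold; replication genes lie left of 1 in the first panel and, but for Gins2, right of it in the second.

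Of the helicase genes, Mcm3 was at 31.2 CPM in the untreated, 17.5 CPM in the non-lesional and 54.3 CPM in the lesional library, which is 3.10-fold (2.68 to 3.59) over non-lesional. Mcm2 and Mcm5 were each at 2.78-fold, Mcm4 at 2.11-fold and Mcm7 at 1.94-fold. Ccne1, the cyclin that fires origins with Cdk2, had the highest ratio of the measured replication genes, at 2.5 against 13.3 CPM, 5.36-fold (3.75 to 7.84). The ribonucleotide reductase subunits Rrm2 and Rrm1 were at 3.23-fold and 1.82-fold, E2f1 at 2.10-fold and Tyms at 1.76-fold. Pcna was at 76.9 against 108 CPM, 1.40-fold, and was not called. Gins2, a subunit of the GINS complex of the helicase, went the other way at 0.822-fold (0.702 to 0.961), with 44.5 CPM in the untreated, 28.0 CPM in the non-lesional and 23.0 CPM in the lesional library.

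Among the mitosis members, Kif11, the motor that separates the spindle poles, was at 9.6 against 42.1 CPM, 4.36-fold (3.62 to 5.27), and Mki67 at 49.6 against 215.5 CPM, 4.34-fold (4.01 to 4.71). The checkpoint kinases Bub1 and Bub1b were at 3.67-fold and 3.57-fold. Tpx2, which activates Aurora A, was at 3.0-fold, Top2a at 2.69-fold, Ccna2 at 2.63-fold, Cenpe at 2.49-fold and Ube2c at 2.47-fold. Hmmr was at 2.31-fold, the mitotic kinase Plk1 at 2.20-fold, Ccnb1 at 1.71-fold and Cenpa, the centromeric histone, at 1.63-fold. Nusap1 was at 1.0-fold (0.895 to 1.12). Cdc20 was at 1.39-fold and Ccnb2 at 1.47-fold. The Aurora kinases Aurka and Aurkb were each at 1.59-fold and not called.

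Length moved with this comparison too. The Spearman correlation of log2 ratio with transcript length was 0.54 over the 21 mitosis genes, -0.24 over the 14 replication genes and 0.40 over 8579 measured genes. In T cells of the same 2 libraries it was 0.39 over 8919 genes, and 0.63 over 16 mitosis genes.

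Other genes of the pathways were called as follows, beside the 27.7% of all genes called higher and 11.0% called lower. Of 24 measured other replication genes 15 were higher, led by Mcm10 (1.5 against 12.5 CPM), the methylation reader Uhrf1 (11.7 against 45.2 CPM) and Dbf4, the activator of Cdc7 (11.0 against 40.3 CPM). Of 35 other mitosis genes 14 were higher, with Kif15 at 3.89-fold, and Pttg1, the securin, was lower at 0.548-fold. Of 15 measured G1 cyclins, CDKs, E2F and RB genes 10 were higher, among them Mycn (1.3 against 24.2 CPM), E2f3 (2.3 against 16.7 CPM) and E2f2 (5.3 against 26.5 CPM). Cdkn2a, which encodes the inhibitors p16 and p19Arf, was at 0.508 against 10.4 CPM. Of 12 p53 target genes 5 were higher, with Plk2 at 5.77-fold, and Btg2 was lower at 0.575-fold.

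Compartments differed in how far lesional and non-lesional keratinocytes stood apart. In the basal sub-gate (56 and 757 cells) replication genes were at 956 against 367 CPM, 2.60-fold, and mitosis genes at 2188 against 1022 CPM, 2.14-fold, with 11 of 14 and 13 of 21 called higher against 18.6% of all genes. In the suprabasal sub-gate (40 and 256 cells) the ratios were 2.19-fold and 1.78-fold. In the bulge and outer root sheath sub-gate (179 and 176 cells) they were 1.03-fold (0.942 to 1.14) and 1.04-fold (0.971 to 1.11), and Mki67 alone of the members of both lists was called, at 2.0-fold, where 14.1% of all genes were called higher. Upper follicle cells (46 and 307) had replication genes at 0.863-fold and mitosis genes at 1.85-fold, with 12 of 21 mitosis genes called higher against 15.9% of all genes.

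The hair matrix sub-gate held 99 lesional and 23 non-lesional cells, and 12 cells of the untreated epidermis. Its lesional cells had the highest levels of all populations, 1138 CPM (1096 to 1181) of replication and 3104 CPM (3034 to 3174) of mitosis genes. Mki67 was at 410 CPM there, Ube2c at 409 CPM and Top2a at 378 CPM. Without these cells in either library the lesional ratios were 1.66-fold for replication and 1.64-fold for mitosis genes. In the lesional library, replication genes were at 758 CPM in cells with Xist and 760 CPM in cells with Y-linked UMIs and no Xist. Mitosis genes were at 1890 CPM (1850 to 1930.1) in the former and 1706 CPM (1673 to 1740) in the latter. These intervals do not overlap, but they cover counting error only and not the spread between cells or animals. Cells with at least 3 mitosis genes after thinning were 43 of 189 (22.8%, 17.0 to 29.4) in the former and 43 of 182 (23.6%, 17.7 to 30.5) in the latter.

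Counting cells in place of UMIs gave part of the same order. A cell was counted for a phase with at least 3 different genes of that list, after every cell had been thinned to 2000 UMIs. With mitosis genes these were 17 of 260 keratinocytes of the untreated epidermis (6.54%, exact Clopper-Pearson 95% interval 3.85 to 10.3), 107 of 1414 of the non-lesional epidermis (7.57%, 6.24 to 9.07) and 97 of 415 of the lesional skin (23.4%, 19.4 to 27.7). Without thinning the shares were 9.18%, 23.5% and 42.1%. With replication genes they were 8.08% (5.07 to 12.1), 4.53% (3.50 to 5.74) and 12.0% (9.08 to 15.6) after thinning, the untreated interval overlapping both others. Shallower cells left out by thinning numbered 230 of 490 in the untreated epidermis. So the untreated and non-lesional shares of mitosis cells overlapped in their intervals, and in untreated cells with at least 0.5% mitochondrial UMIs the share was 3 of 126 (2.38%). Neutrophils gave 2 of 678 (0.295%) in the imiquimod dermis and 0 of 61 in the lesional skin, at median depths of 3575.5 and 3104 UMIs before thinning.

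**Figure D3:**
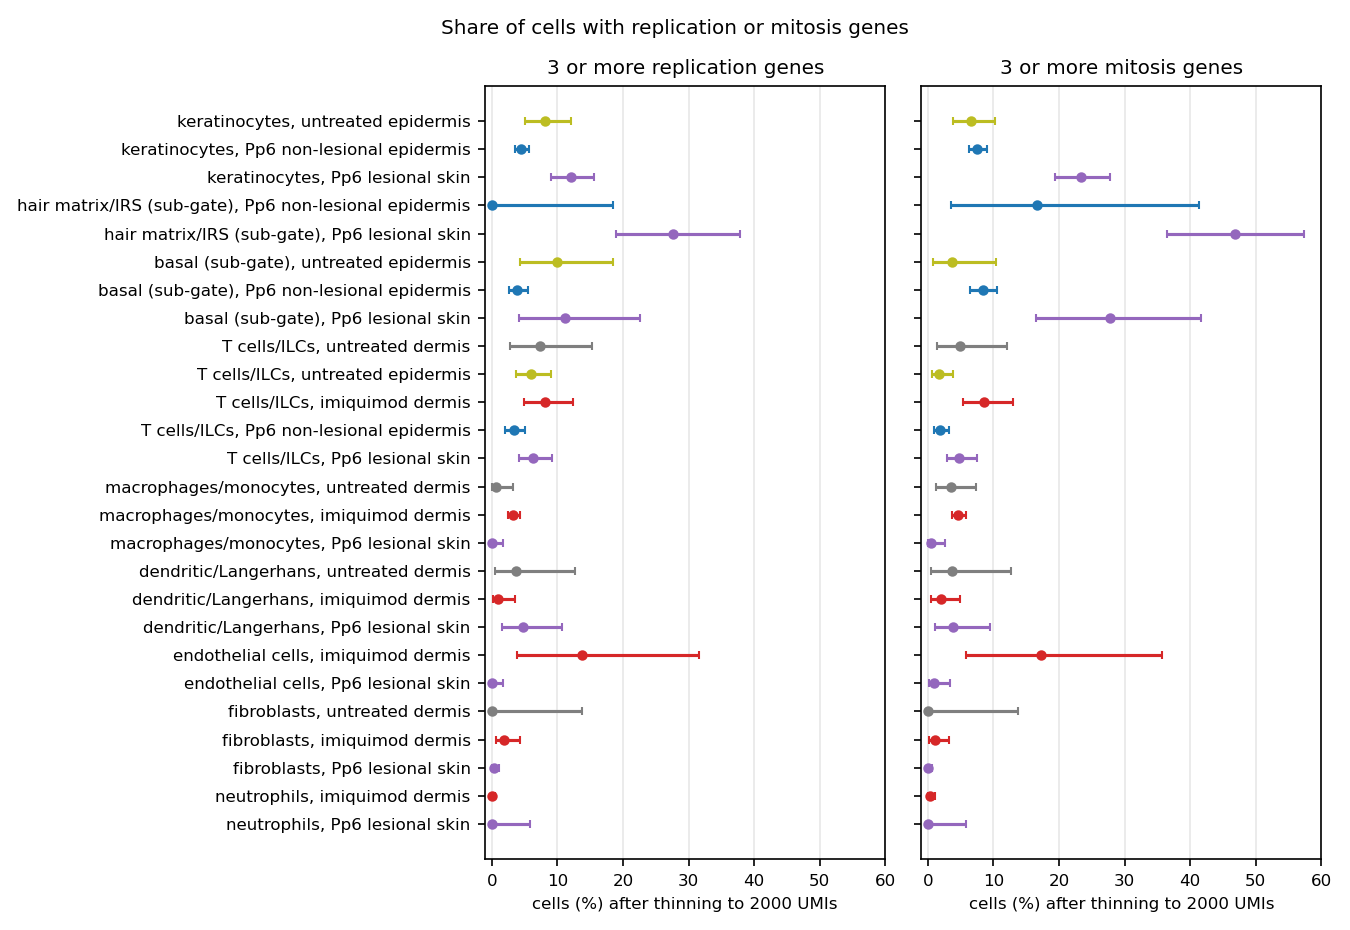
Share of cells, in percent after thinning to 2000 UMIs, with at least 3 replication genes (left) or at least 3 mitosis genes (right), 1 row for each class or sub-gate and library, with exact Clopper-Pearson 95% intervals. The lesional hair matrix is highest for mitosis genes (46.8%), lesional keratinocytes stand at 23.4%, and neutrophils at or near 0.

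Which cells held each gene's UMIs separated the members, without reference to groups. Cells were sorted by the other members: those with at least 3 other mitosis genes, those with at least 3 other replication genes only, and those with neither. Here no cell was thinned, so deep libraries have more cells with mitosis genes. In non-lesional keratinocytes the share of a mitosis gene's UMIs in cells with other mitosis genes ran from 80.3% (Bub1b) to 96.4% (Bub1). The share of a replication gene's UMIs ran from 47.3% (Gins2) to 84.8% (Rrm2). The share of Rrm2, the inducible subunit of ribonucleotide reductase, thus lay within the range of the mitosis genes. It was at 65.9 CPM in cells with mitosis genes, 6.8 CPM in cells with replication genes only and 6.3 CPM in the rest. Its partner Rrm1 was at 84.1, 30.03 and 18.8 CPM. Gins2 was at 37.4, 35.9 and 17.3 CPM, and Mcm4, a helicase subunit, at 23.3, 20.4 and 7.75 CPM.

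In other populations Rrm2 again had the highest share of the replication genes. In imiquimod macrophages 88.8% of its UMIs lay in cells with mitosis genes, in untreated keratinocytes 83.3% and in T cells of the imiquimod dermis 93.0%. Its level in cells with mitosis genes was 24.3 times that in cells with replication genes only in those macrophages, and 19.96 times in the untreated keratinocytes. For Gins2 the same ratios were 2.05 and 1.62, and for Mcm2 1.35 and 2.62. In lesional keratinocytes most UMIs of each replication gene lay in cells with mitosis genes, from 82.9% (Mcm4) to 94.1% (Rrm2), below the lowest mitosis gene there (Aurka, 96.9%). Such cells were 42.1% of the cells of the class, and their part of all UMIs was not computed. Lesional keratinocytes counted for mitosis after thinning had been deeper before it, at a median of 31239 UMIs against 19870 UMIs with neither phase. The promoter window of Rrm2 shown above holds CCAAT but neither TTTGAA nor TTTNNCGC.

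Among mitosis genes Cenpa stood apart in leukocytes. In imiquimod macrophages 59.4% of its UMIs lay in cells with other mitosis genes, the lowest share of the 21, against 85.3% in non-lesional and 97.7% in lesional keratinocytes. In lesional T cells the share was 22.7%, against 93.5% for Ube2c. Cells with neither phase had 32.5 CPM of Cenpa in those macrophages and 104 CPM in those T cells.

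**Figure D4:**
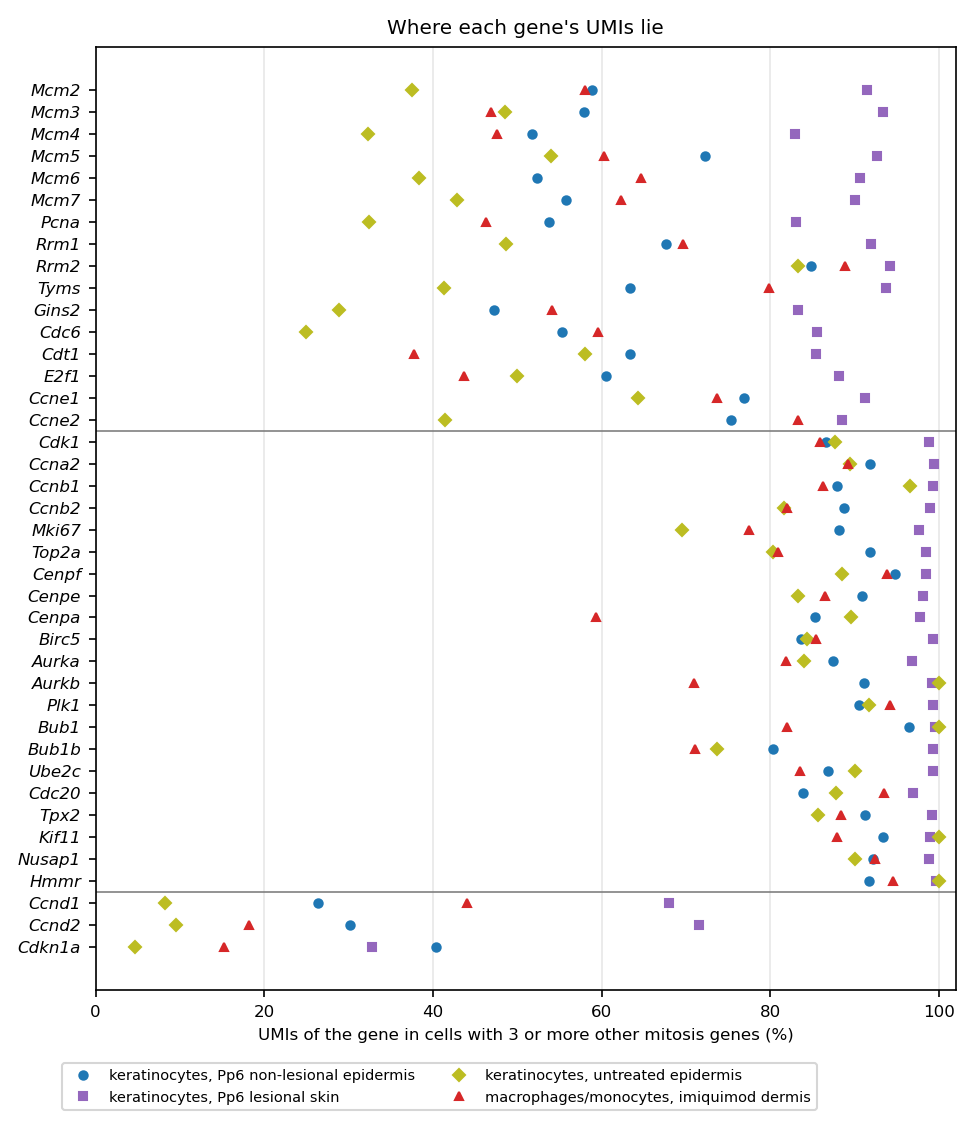
For each of the 40 genes, the percentage of its UMIs found in cells with at least 3 other mitosis genes, in keratinocytes of 3 libraries and in macrophages of the imiquimod dermis; lines separate replication, mitosis and G1 genes. Rrm2 has the highest share of the replication genes in each population, Cenpa lies low in macrophages (59.4%), and lesional keratinocytes are shifted to the right for both phases.

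Of the G1 genes, Ccnd2 followed neither list in keratinocytes, while Ccnd1 and Cdkn1a rose over the 3 libraries in the order of the summed mitosis genes. In keratinocytes Ccnd2 had 479 CPM (450 to 509) in untreated, 694 CPM (681 to 707) in non-lesional and 413 CPM (401 to 425) in lesional cells, so it was called lower in lesional cells at 0.595-fold. In the basal sub-gate it was at 586, 786 and 114 CPM, and the lesional value was 0.145-fold (0.127 to 0.164) of the non-lesional. In the lesional hair matrix it was at 1134 CPM. Ccnd1 was at 89.5, 94.7 and 181 CPM in keratinocytes, 1.91-fold in lesional over non-lesional cells. Cdkn1a was at 149, 198 and 331 CPM, 1.67-fold (1.59 to 1.75), but at 115, 117 and 111 CPM in the basal sub-gate.

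Within a library, Cdkn1a was lower in cells with mitosis genes than in cells of neither phase in untreated keratinocytes (55.2 against 161 CPM), in lesional keratinocytes (190 against 560 CPM) and in imiquimod macrophages (123 against 224 CPM). In non-lesional keratinocytes it was at 226 against 185 CPM, and in their basal sub-gate at 141 against 111 CPM. The lesional basal sub-gate had 79.2 CPM in cells with mitosis genes, against 258 CPM in 13 cells with neither. Ccnd2 was lower in cells with mitosis genes in non-lesional keratinocytes (590 against 704 CPM) and higher in lesional ones (517 against 269 CPM). In T cells of the imiquimod dermis it was at 119 against 248 CPM.

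Other classes differed most in Ccnd2. T cells had 1304 CPM in the non-lesional and 878 CPM in the untreated epidermis, while lesional T cells had 522 CPM and those of the dermis had 380 CPM when untreated and 213 CPM after imiquimod. Macrophages had 15.6, 6.6 and 9.2 CPM in the untreated dermis, the imiquimod dermis and the lesional skin. Ccnd1 was at 259 CPM in endothelium of the imiquimod dermis and 156 CPM in that of the lesional skin, and at 4.0 CPM in T cells of the imiquimod dermis.

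**Figure D5:**
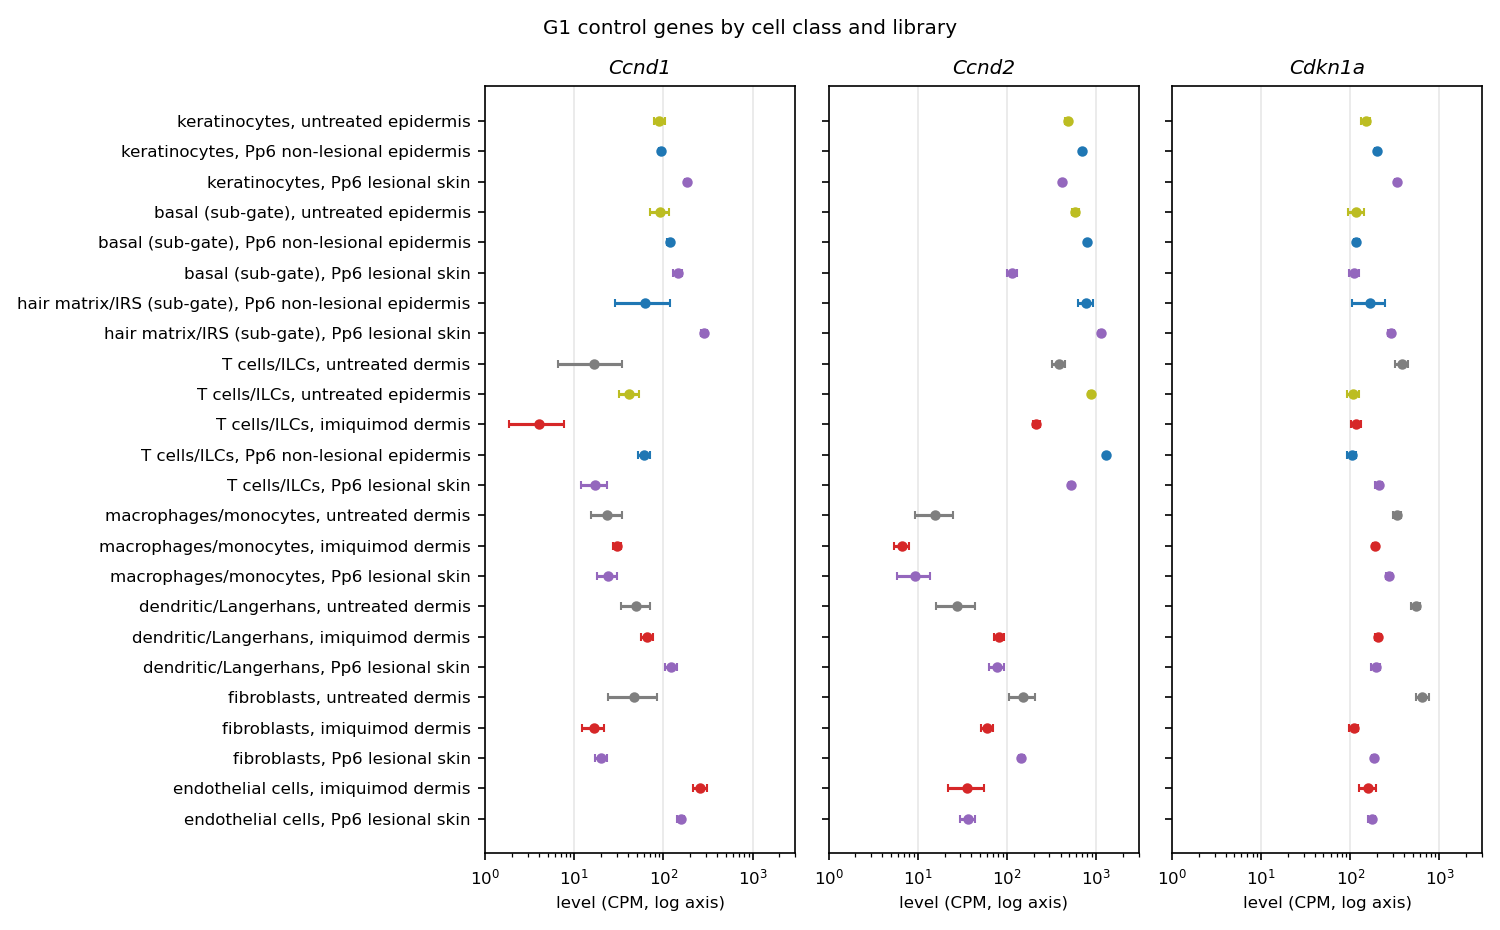
Level of Ccnd1, Ccnd2 and Cdkn1a in CPM on log axes, 1 row for each class or sub-gate and library, with exact Poisson 95% intervals. Ccnd2 spans from 6.6 CPM in imiquimod macrophages to 1304 CPM in non-lesional T cells, and Cdkn1a is lower in the imiquimod than in the untreated dermis in all 4 classes compared.

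Imiquimod against untreated dermis asks what differs in leukocytes and stroma after treatment. In macrophages and monocytes (1565 and 228 cells) replication genes were at 313 against 217 CPM, 1.44-fold (1.27 to 1.64), and mitosis genes at 390 against 327 CPM, 1.19-fold (1.07 to 1.33). Thinned to 2000 UMIs a cell, these ratios were 1.02-fold and 0.994-fold. Of 13 measured replication genes 2 were called higher and of 13 measured mitosis genes 3, where 6.01% of all genes were. The median log2 ratio was 0.92 over replication and -0.11 over mitosis genes, against -0.29 over all genes. Ube2c was at 6.1 CPM in the untreated and 50.4 CPM in the imiquimod dermis, 8.30-fold (4.01 to 20.7). Cdk1 was at 6.1 against 25.9 CPM, Birc5 at 22.5 against 60.9 CPM, Mcm5 at 4.3 against 15.8 CPM and Rrm2 at 0.9 against 17.3 CPM, the untreated value of Rrm2 resting on 1 UMI. Mki67 was at 33.8 against 19.2 CPM, 0.569-fold (0.406 to 0.817), and Cenpa, called lower, at 125 against 62.2 CPM. Lower calls made up 19.3% of all genes. Without Cenpa the mitosis genes were at 1.62-fold.

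Cells with at least 3 mitosis genes after thinning were 6 of 173 macrophages (3.47%, 1.28 to 7.40) in the untreated and 70 of 1499 (4.67%, 3.66 to 5.86) in the imiquimod dermis, and with replication genes 1 and 49 cells (0.578% and 3.27%). The mitosis shares overlapped in their intervals, and so did the replication shares (0.0146 to 3.18% and 2.43 to 4.30%). Macrophages made up 216 of the 425 unthinned cells with mitosis genes in the imiquimod library, and 99 more were mixed. Of 459 barcodes with mitosis genes there, 34 (7.41%) had been removed as doublets, against 3.99% of the other barcodes.

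In T cells and ILCs (263 and 109 cells) replication genes were at 557 against 520 CPM, 1.07-fold (0.928 to 1.24), and mitosis genes at 651 against 420 CPM, 1.55-fold (1.33 to 1.82). Thinned, the mitosis genes were at 0.938-fold. Of 16 measured mitosis genes Cdk1 (7.0 against 36.8 CPM), Ccnb2 (14.1 against 49.8 CPM) and Ube2c (30.5 against 110 CPM) were called higher, where 3.60% of all genes were, and Aurka lower (28.1 against 5.4 CPM), where 10.9% were. Rrm2 and Gins2 were called higher among 14 measured replication genes, Gins2 from 1 UMI. The share of T cells with mitosis genes after thinning was 4 of 82 (4.88%) against 20 of 233 (8.58%), with overlapping intervals.

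Dendritic and Langerhans cells (215 and 64 cells) went the other way, with mitosis genes at 288 CPM in the imiquimod and 590 CPM in the untreated dermis, 0.488-fold (0.430 to 0.553). Cenpa was at 338 CPM in the untreated and 78.3 CPM in the imiquimod dermis, so it held 207 of the 362 untreated mitosis UMIs. Without Cenpa the mitosis genes were at 0.829-fold (0.693 to 0.996). Cdk1 was also called lower, at 0.318-fold, while Cdc20 was called higher, at least 2.81-fold against a floor of 3 counts, where 9.82% of all genes were called lower and 6.62% higher. Dendritic cells with at least 3 mitosis genes after thinning were 4 of 203 (1.97%) in the imiquimod and 2 of 54 (3.70%) in the untreated dermis, with overlapping intervals. Over the 12 measured mitosis genes of this class the log2 ratio and transcript length had a Spearman correlation of -0.80, and over 6909 measured genes -0.26. In macrophages and T cells it was -0.33 and -0.30 over all measured genes. The part of length was not tested. In fibroblasts (295 and 25 cells) mitosis genes were at 226 against 21.5 CPM, the latter from 5 UMIs, and Ube2c, Birc5 and Cdk1 had 0 UMIs in the untreated library. Against 3 counts over that class they were at least 2.43-fold, 2.28-fold and 1.94-fold higher. All 8 measured mitosis genes were above 1-fold and 3 were called, where 3.77% of all genes were.

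Cdkn1a was called lower in each of the 4 classes of this comparison. It was at 335 against 189 CPM in macrophages, 375 against 116 CPM in T cells, 542 against 204 CPM in dendritic cells and 644 against 109 CPM in fibroblasts, untreated first. Among the p53 target genes measured, 4 of 11 were called lower in T cells (10.9% of all genes), 4 of 11 in fibroblasts (9.93%) and 3 of 9 in dendritic cells (9.82%), none higher. In macrophages 2 of 10 were called lower, near the 19.3% of all genes. Plk2, for example, was at 107 against 50.2 CPM in macrophages, and Bbc3, the pro-apoptotic Puma, at 31.2 against 13.7 CPM. Handling and digestion of the samples are not given per library, and their part was not tested.

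Stroma of the lesional skin was set beside that of the imiquimod dermis, which differs from it in genotype, age and tissue layer as well. In endothelial cells (234 and 34 cells) mitosis genes were at 67.7 CPM in the lesional skin and 1055 CPM in the imiquimod dermis, 0.0642-fold (0.0542 to 0.0757), with 16 of 17 measured genes called lower, where 5.92% of all genes were. Cdk1 was at 5.6 against 149 CPM and Ube2c at 9.1 against 200 CPM. Replication genes were at 237 against 585 CPM. Cells with mitosis genes after thinning were 2 of 215 (0.93%) in the lesional skin and 5 of 29 (17.2%, 5.85 to 35.8) in the imiquimod dermis. In fibroblasts all 8 measured mitosis genes were called lower, where 8.57% of all genes were, with sums of 21.9 and 226 CPM, the lesional sum near that of the untreated dermis. No lesional fibroblast of 636 had 3 mitosis genes after thinning, where the exact interval reaches 0.578%. In the imiquimod dermis 3 of 272 fibroblasts did (1.10%, 0.228 to 3.19), with overlapping intervals.

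Leukocytes of the same pair were not uniform. Lesional macrophages (235 cells) had 138 CPM of mitosis genes against 390 CPM, 0.354-fold, with 8 of 10 called lower, where 6.55% of all genes were. Lesional dendritic and Langerhans cells (111 cells) had 778 CPM against 288 CPM, 2.70-fold, with 13 of 20 called higher, where 19.9% were. Over these 20 genes the log2 ratio and transcript length had a Spearman correlation of 0.81, and over all measured genes of the class 0.54. Lesional dendritic cells with at least 3 mitosis genes after thinning were 4 of 105 (3.81%, 1.05 to 9.47). In the imiquimod dermis they were 4 of 203 (1.97%, 0.539 to 4.97), with overlapping intervals. Without thinning the shares were 9.91% and 11.2%, so the share of cells did not follow the summed ratio. In T cells the sums were close, 704 against 651 CPM, but the genes diverged. Mki67 was at 124 CPM in lesional and 30.04 CPM in imiquimod T cells, Kif11 at 27.1 against 7.2 CPM and Cenpf at 40.2 against 14.3 CPM, all called higher, where 28.5% of all genes were. Birc5 was at 35.6 against 91.9 CPM and Ccnb2 at 21.05 against 49.8 CPM, both called lower, where 7.04% were. Over the 18 measured mitosis genes of T cells the correlation of log2 ratio with transcript length was 0.64, and over 8052 measured genes 0.61. The part of length in these differences was not tested.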

How the data were processed

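RNA of 5 droplet libraries (Chromium Single Cell 3′ v3; enzyme digestion, dead cells removed by sorting) was measured. The authors deposited UMI counts per gene and barcode, made with CASAVA and Cell Ranger on mm10 per the submitters' processing notes, which give no versions. The file headers name software version 3.0.2. The counts were used unchanged. Barcodes with at least 200 genes and under 20% mitochondrial UMIs were kept, and the highest Scrublet scores were removed at 0.8% per 1000 barcodes. Classes were set by mean log-normalised marker level (at least 0.25, the second class under 0.7 of the best, otherwise mixed), and keratinocyte sub-gates by the highest mean z score. UMIs were summed by class and library and given as CPM. Ratios have exact conditional binomial intervals. Libraries were not tested against each other, since each group has 1, and intervals cover counting error only. Named genes are the 40 members and, of the other lists, up to 3 genes per list and direction with the largest ratio among those called by size. Members and lists were chosen with earlier results of these data known. Scripts used Python 3.11.15, numpy 2.4.6, scipy 1.17.1, pandas 2.3.3, scanpy 1.11.5 and matplotlib 3.10.9, and were tested on simulated data. Alternatives are given in the closing section.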

Additional observations from a re-analysis of the deposited data

Results flagged for a closer look

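The summed mitosis genes of dendritic and Langerhans cells were at 0.488-fold in the imiquimod against the untreated dermis, while those of macrophages, T cells and fibroblasts were above 1-fold. The opposite direction singled the class out. It rests in large part on Cenpa, without which the ratio was 0.829-fold. After thinning to 2000 UMIs a cell, macrophages were at 0.994-fold (0.802 to 1.24) and T cells at 0.938-fold (0.703 to 1.27). Both intervals include 1, so neither class then had a direction opposite to that of dendritic cells, at 0.378-fold (0.270 to 0.531). The thinned ratio of fibroblasts was not computed. The shares of dendritic cells with at least 3 mitosis genes after thinning, 1.97% in the imiquimod and 3.70% in the untreated dermis, overlapped in their intervals. With 1 library a group the difference between classes was not tested.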

How the results depend on the processing

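No paired analysis was possible because each group has 1 library. Of the ratios recomputed under alternatives, 57 stayed within the interval of the value reported, 37 moved and 4, whose interval excluded 1, reversed. Of those that moved or stayed, 2, both of T cell replication genes, whose interval includes 1, also lay on the other side of 1 (0.762 as a mean over cells and 0.935 with a stricter gate). Of the shares of cells, 31 stayed within the interval and 23 moved. The settings on mixed and shared barcodes, on 2 or 4 genes for a counted cell, and on 1000 UMIs or no thinning were chosen after seeing the data, as were the stricter filter, no doublet removal and the mitochondrial split for the shares of cells, and both settings for dendritic cells. The cause of these moves was not tested. In macrophages (imiquimod over untreated dermis) the replication ratio of 1.44 became 1.73 with a stricter gate, 1.02 after thinning, 1.23 as a mean over cells, 1.76 relative to the median of all genes, 1.79 without Pcna and 1.24 with mixed barcodes in their best class. The mitosis ratio of 1.19 became 1.53, 0.994 (reversed), 1.04 and 1.46 under the first 4 of these, and 1.62 without Cenpa. In T cells the replication ratio of 1.07 became 0.762 as a mean over cells, 1.32 relative to the median and 1.31 without Pcna. The mitosis ratio of 1.55 became 0.938 after thinning (reversed), 0.899 as a mean over cells (reversed), 1.91 relative to the median and 2.21 without Cenpa. In dendritic cells the mitosis ratio of 0.488 became 0.378 after thinning and 0.829 without Cenpa. For non-lesional over untreated keratinocytes the replication ratio of 0.655 became 0.719 after thinning, 0.575 as a mean over cells and 0.614 in cells with at least 0.5% mitochondrial UMIs. The mitosis ratio of 2.01 became 1.33, 0.970 (reversed) and 4.06 under the same settings, and 3.39 in the basal sub-gate. For lesional over non-lesional keratinocytes the replication ratio of 1.94 became 1.76 after thinning, 1.66 relative to the median, 1.83 without mitochondrial and ribosomal protein UMIs, 2.07 without Pcna, 2.60 in the basal sub-gate and 1.66 without the hair matrix. The mitosis ratio of 2.06 became 1.94 as a mean over cells, 1.77 relative to the median, 1.95 without mitochondrial and ribosomal protein UMIs, 2.01 without Ube2c, 2.14 in the basal sub-gate, 1.64 without the hair matrix, 2.20 in lesional cells with Xist and 1.99 in those with Y-linked UMIs. Shares of keratinocytes with mitosis genes became 2.38% in untreated cells with at least 0.5% mitochondrial UMIs. Non-lesional shares became 11.5% with at least 2 genes and 23.5% without thinning, and lesional shares 28.7% and 42.1%, with 6.12% and 15.8% at 1000 UMIs. Untreated shares were 6.92% with at least 2 genes, 9.18% without thinning and 7.35% at 1000 UMIs. At 1000 UMIs the untreated share (5.02 to 10.3) thus lay above the non-lesional share (4.98 to 7.44), with overlapping intervals. Imiquimod macrophages had 7.87% with at least 2 genes, 3.47% with at least 4, 2.58% at 1000 UMIs and 13.8% without thinning. Untreated macrophages had 5.20%, 2.31%, 2.86% and 5.26% under the same settings, so at 1000 UMIs the imiquimod share was not the higher. Shares with replication genes, with at least 2 genes, at least 4 genes and without thinning, were 12.3%, 5.00% and 19.6% in the untreated, 11.2%, 2.33% and 30.3% in the non-lesional and 24.1%, 7.23% and 59.1% in the lesional keratinocytes; at 1000 UMIs (1 random draw) they were 3.68%, 1.76% and 5.91%.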
